A study of Mus musculus with 2 samples.

Results

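The Z-disc is the plate of protein that borders each sarcomere of striated muscle and anchors the actin filaments of both neighbours. The genes described here encode its α-actinins (Actn2 and Actn3), its PDZ-LIM proteins (Ldb3, Pdlim3, Pdlim5 and Pdlim7), the titin cap Tcap, the actin-bundling protein myotilin (Myot) and the calsarcin Myoz3. They were taken by gene symbol from the platform annotation, which gives these 9 genes 20 of the 45101 probe sets on the array. A gene was taken as measured if a probe set of it exceeded 250 on at least 1 of the arrays, which held for all 9 and for 3780 genes in all. Signals are in array units on a linear scale.

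Skeletal muscle RNA was compared between non-transgenic control mice and RXRγ mice of a single line (4-3 by the study's methods), in which a transgene under the human α-actin promoter overexpresses the nuclear receptor RXRγ. Both groups were C57BL6 females of 4 months of age. The RNA of each genotype was combined from 5 animals by the design text, or 3 by the sample labels, and measured on 1 Affymetrix MG430 array. There was thus no replicate and no error to set a difference against, and every difference described is one between these 2 arrays, with no p-value. The sources used here do not name the muscle that was dissected.

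The label of the arrays was checked on Rxrg, whose signal was 9172 in RXRγ mice and 334.5 in control mice. Of the 8 skeletal muscle markers listed, all had a probe set of at least 7829 on the brighter array. None of the 8 was higher in RXRγ mice and 3 were lower, beside 16.8% higher and 20.1% lower among all genes measured. The lower ones were Ckm (log2 ratio of RXRγ over control mice -0.75), Casq1 (-0.49) and Myh4 (-0.42). Loess centring on the signal moved Myh4 to -0.33 and within the threshold of 0.4. The brighter probe sets of Ckm and Myh4 were within the threshold (-0.11 and -0.06), and the dimmer ones were lower (-1.39 and -0.77). The median log2 ratio of the 8 markers was -0.24, close to the -0.20 of the 9 Z-disc genes, and the part of this shift in the Z-disc values was not tested. The 6 cardiac markers lay between 7.4 and 29.9 at their brightest, so that Actn2, which the heart also uses, was measured beside cardiac markers far under 250. The 6 endothelial markers and the red blood cell markers with a probe set of their own (3 of 4) also stayed under 250. Of the markers of fibroblasts (6), smooth muscle (7), adipocytes (6), macrophages (5) and Schwann cells (4), 16 were measured. Of these 16, only the fibroblast gene Lum differed by 0.4 on the log2 scale (699.1 in control and 1771 in RXRγ mice), and with loess centring the smooth muscle marker Des, also a gene of skeletal fibres, did so too. A further 8 (4 of smooth muscle, 3 of macrophages and 1 of adipocytes) lay at 138.2 or under on both arrays, too dim for a ratio to be read, and 4 had no probe set of their own.

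As background, an α-actinin dimer cross-links the barbed ends of actin filaments from opposite sarcomeres. The PDZ domain of the PDZ-LIM proteins binds α-actinin, and their LIM domains, zinc-binding modules, recruit signalling proteins such as protein kinase C. Titin runs from the Z-disc to the M-band, and the titin cap joins the ends of titin molecules. Calsarcins tie the phosphatase calcineurin to α-actinin. Actn2 is used by all skeletal fibres and by the heart, and Actn3 by fast fibres.

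Actn2 was the 1 gene of the 9 that was higher in RXRγ mice, Pdlim3 and Myoz3 were the 2 that were lower, and 6 were neither. The threshold for a call was a log2 ratio (RXRγ over control mice) of 0.4 in either direction. Among all 3780 genes, 16.8% were higher and 20.1% were lower by the same measure. With so few genes, 1 higher and 2 lower are near the counts that these shares would give for any 9 genes, and nothing is read from the counts. The median log2 ratio of the 9 was -0.20, against -0.04 over all genes, and 7 of the 9 were below 0, as were 53.5% of all genes. At the level of probe sets, 12 of the 20 exceeded 250 on the brighter array, of which 3 belong to Ldb3 and 2 to Pdlim5. In bulk muscle, fewer fibres of a kind and less RNA per fibre cannot be told apart.

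**Figure D1:**
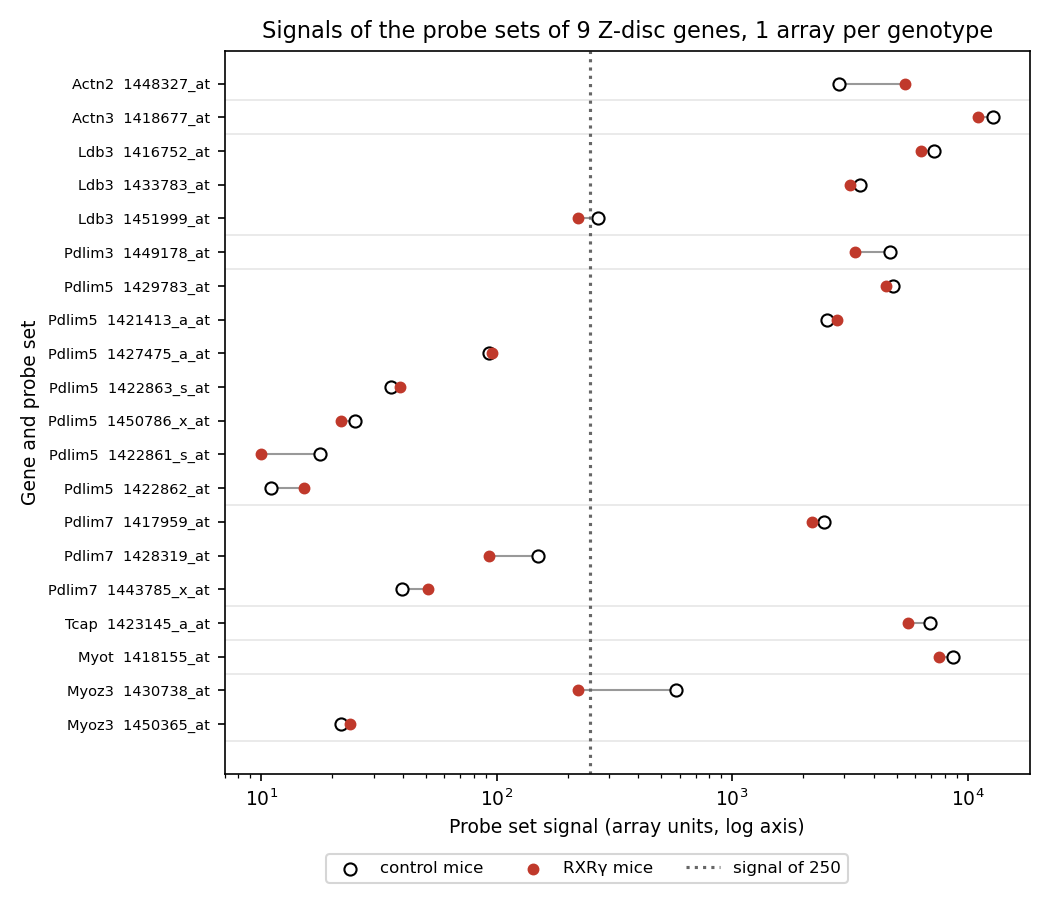
Signals of the 20 probe sets on the array of control mice (open circles) and that of RXRγ mice (red circles), in array units on a log axis. The dotted line is at 250; the Actn2 circles lie apart with RXRγ to the right (5441 against 2848), those of Pdlim3 and of the brighter Myoz3 probe set with RXRγ to the left, and the other pairs above the line lie close together.

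The skeletal α-actinins went apart. Actn2, read by 1 probe set, had a control signal of 2848 and an RXRγ signal of 5441, a 1.91-fold difference (log2 ratio 0.93). Of all genes measured, 5.63% had a higher log2 ratio. Actn3, also read by 1 probe set, had 12849 in control mice and 11114 in RXRγ mice (log2 ratio -0.21), within the threshold. The difference between the log2 ratios of Actn2 and Actn3 was 1.14, which no common scaling of an array can alter. It amounts to a 2.21-fold shift of Actn2 relative to Actn3, and says nothing of which is the more abundant, since signals of different probe sets are not comparable. The non-muscle α-actinins did not reach 250: the brightest probe set of Actn1 had 77.2 in control and 111.5 in RXRγ mice, and Actn4 had 202.7 and 219.8.

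The promoter window of Actn2 (RefSeq, GRCm38.p6, chr13:12340683-12340982, minus strand, running from 250 bases before to 50 bases after the annotated start) is shown because Actn2 alone of the 9 was higher. That of Pdlim3 (chr8:45885237-45885536, plus strand), the lower gene with a window in the table, and that of Ldb3 (chr14:34588632-34588931, minus strand), a gene within the threshold, are shown beside it. Capitals mark matches, on either strand, to the motifs searched: the E-box CANNTG, the nuclear receptor core AGGTCA, the MCAT element CATTCC, the cyclic AMP response element TGACGTCA, the CArG box and the MEF2 site.
Actn2: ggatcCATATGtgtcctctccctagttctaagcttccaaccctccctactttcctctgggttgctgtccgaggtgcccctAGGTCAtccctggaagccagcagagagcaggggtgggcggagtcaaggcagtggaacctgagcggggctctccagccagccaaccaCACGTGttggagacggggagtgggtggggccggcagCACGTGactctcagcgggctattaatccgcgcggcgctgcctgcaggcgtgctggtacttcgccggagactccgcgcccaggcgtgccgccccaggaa
Pdlim3: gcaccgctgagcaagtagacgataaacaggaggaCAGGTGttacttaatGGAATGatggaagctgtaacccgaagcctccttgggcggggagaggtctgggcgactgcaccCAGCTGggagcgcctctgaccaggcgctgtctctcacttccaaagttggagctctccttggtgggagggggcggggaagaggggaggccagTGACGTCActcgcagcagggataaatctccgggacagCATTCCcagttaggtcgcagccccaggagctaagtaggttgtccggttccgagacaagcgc
Ldb3: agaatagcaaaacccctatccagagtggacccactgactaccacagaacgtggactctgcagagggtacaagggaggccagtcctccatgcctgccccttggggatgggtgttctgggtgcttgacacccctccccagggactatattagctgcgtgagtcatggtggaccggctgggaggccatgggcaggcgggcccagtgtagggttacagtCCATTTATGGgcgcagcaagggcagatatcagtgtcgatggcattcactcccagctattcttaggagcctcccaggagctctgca

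The Actn2 window holds 3 E-boxes, of which both nearer the start read CACGTG, and 1 AGGTCA that begins 170 bases before the start. At least 1 E-box is found in 72.3% of the 32851 windows of the table and an AGGTCA in 16.3%, while CACGTG, looked for after the sequence was seen and itself an E-box, occurs in 7.15% of windows and at least 2 times in 0.594%. The Pdlim3 window holds 2 E-boxes, 2 MCAT elements (14.7% of windows hold 1 or more) and a TGACGTCA (1.79%). The Ldb3 window holds a CArG box, CCATTTATGG, as do 1.63% of windows, and its second window, which overlaps this one, holds the same box. None of these windows has a MEF2 match (3.19% of windows). Windows were given for 5 of the 9 genes, the others being Pdlim5 and Pdlim7; Pdlim5 has 1 E-box in one of its windows and the AGGTCA motif in the other, and Pdlim7 has none of the motifs. A match is a run of letters and not a measured binding site, and the arrays do not bear on binding.

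The 4 PDZ-LIM genes differed less from each other than the α-actinins. Pdlim3 encodes ALP, which has a single LIM domain and binds α-actinin-2 at the Z-disc. It was lower, at 3340 in RXRγ mice against 4707 in control mice, a 1.41-fold difference (log2 ratio -0.49), and 15.7% of all genes had a lower log2 ratio. The other 3, which have 3 LIM domains in their long forms, stayed within the threshold.
Ldb3, also known as ZASP or Cypher, was read by 3 probe sets above 250. Their signals in control and RXRγ mice were 7213 and 6349, 3481 and 3173, and 268.2 and 220.7. All 3 were lower in RXRγ mice, with log2 ratios from -0.28 to -0.13 and a mean of -0.20. The dimmest, at -0.28, passed 250 on the control array alone, so its direction is not read. The brighter probe sets alone have a mean of -0.16. The span of 0.15, which takes in the dimmest probe set, is under the median span of 0.20 among the 1213 genes with more than 1 probe set above 250.
Pdlim5, which encodes ENH, has 7 probe sets. Those above 250 went in opposite directions by small amounts, with 4843 and 4516 (log2 ratio -0.10) and with 2532 and 2801 (log2 ratio 0.15), so that the gene's log2 ratio was 0.02. Its 4 probe sets built on the transcript record NM_019808 had signals between 10 and 38.9 on both arrays, and the one built on BC002020 had 93.0 and 95.6. The probe set with 2801 in RXRγ mice is built on another record of the same gene, NM_022554. The brightest one, with 4516 in RXRγ mice, has no record listed. The annotation does not say which exons the probes cover, so the forms of Pdlim5 were not told apart here.
Pdlim7, which encodes Enigma, had 1 of 3 probe sets above 250, with 2465 in control and 2182 in RXRγ mice (log2 ratio -0.18). The other probe sets had 149.6 and 92.4, and 39.7 and 51.1. Pdlim1, a further PDZ-LIM gene that binds α-actinin and is better known from non-muscle cells, was higher, at 674.1 against 381.4 (log2 ratio 0.82). Pdlim2 and Pdlim4 did not reach 250, with at most 105.6.

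Tcap and Myot, which hold titin and actin at the Z-disc, were within the threshold. Tcap had 6901 in control and 5612 in RXRγ mice (log2 ratio -0.30), the lowest log2 ratio among the 6 genes within the threshold. Myot had 8644 and 7587 (log2 ratio -0.19). The titin gene Ttn had 5 probe sets above 250 that did not go together: the brightest pair had 10334 and 9188, and 9666 and 8869 (log2 ratios of -0.17 and -0.12), while the dimmer 3 ran from -1.23 to -0.44. Palld, which encodes the myotilin relative palladin, had a mean signal of 408.1 in control and 408.6 in RXRγ mice, and Mypn, which encodes myopalladin, had 1407 and 1038 (log2 ratio -0.49).

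Myoz3, the calsarcin of fast fibres, differed most of the 9. Its brighter probe set had 576.8 in control mice and 222.3 in RXRγ mice, a 2.59-fold difference (log2 ratio -1.38). The gene passed the filter of 250 through the control array alone, so its rank among the genes measured is not read. The brighter probe set is built on an expressed sequence tag. The other probe set, built on the gene's RefSeq record, had 21.8 and 23.9, too dim for a ratio to be read, so the difference rests on 1 probe set. The remaining calsarcins were within the threshold. Myoz1, also a calsarcin of fast fibres, had a mean of 3981 in control and 4129 in RXRγ mice over 2 probe sets (log2 ratios of -0.01 and 0.06), and Myoz2, the calsarcin of slow fibres and heart, had 1257 and 1296 (log2 ratio 0.04).

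The brightest genes of the array lay slightly under 0 as a group. Of the 93 genes with a mean signal over 5000, a class set after the values were seen, the median log2 ratio was -0.10, and quartiles were -0.19 and 0.05. Actn3, Tcap and Myot belong to it, and 22, 11 and 24 of the 93 had a lower log2 ratio than each of them. In this class 1.08% of genes were higher by the threshold and 9.68% were lower. Actn2, Ldb3, Pdlim3, Pdlim5 and Pdlim7 belong to the 249 genes with a mean signal from 2000 to 5000, of which 10.04% were higher and 14.9% lower. Among those, 15 had a higher log2 ratio than Actn2 and 25 a lower one than Pdlim3. Centring the log2 ratios by a loess curve on the signal moved Actn3 to -0.12, Tcap to -0.22, Myot to -0.10 and Pdlim3 to -0.42, and Actn2 to 1.01.

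**Figure D2:**
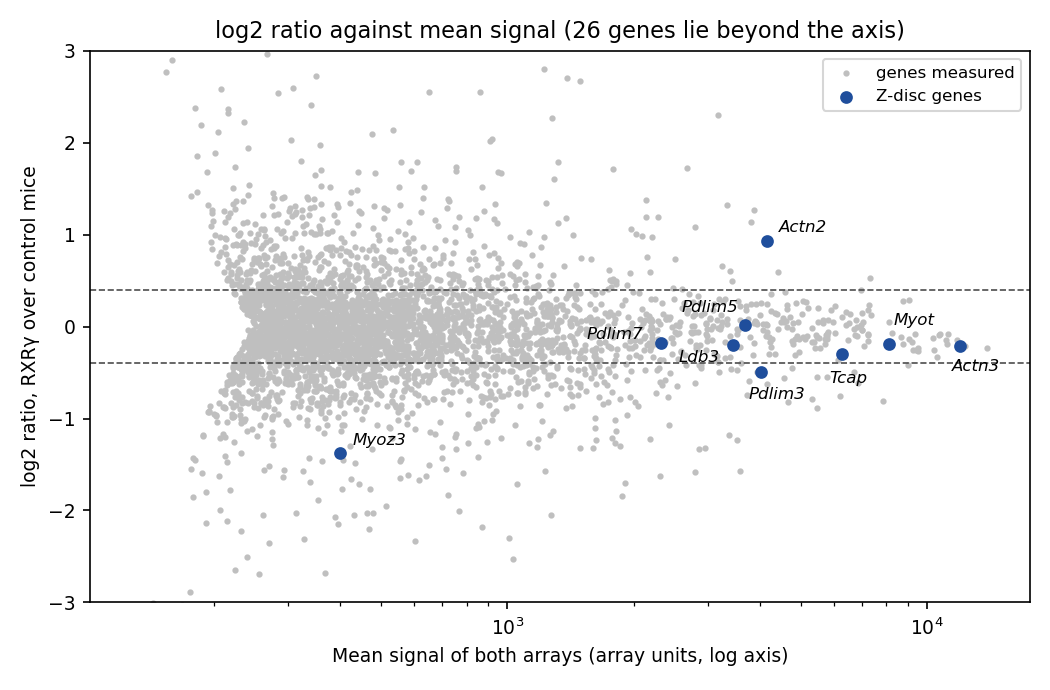
log2 ratio of RXRγ over control mice against the mean signal of both arrays (array units, log axis), 1 grey point for each of 3780 genes and blue points for the 9 Z-disc genes; 26 genes lie beyond the axis and dashed lines mark 0.4 in either direction. Actn2 (0.93) lies near the upper edge of the genes of similar signal, of which 15 of 249 were higher still, Myoz3 (-1.38) lies among dim genes with a wide spread, and Actn3, Tcap and Myot lie in the narrow band of the brightest genes.

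Around these genes, 36 others were listed for the Z-disc, not all of them for Z-disc proteins (Mef2c, for one, encodes a transcription factor). Of these 36, 30 were measured, 2 had no probe set of their own and 4 did not reach 250. Of the 30, 5 were higher, 11 were lower and 14 were neither, with a median log2 ratio of -0.13. Over all genes, 16.8% were higher and 20.1% were lower. The 11 lower genes include Ttn, at a mean log2 ratio of -0.63. Rcan1, an inhibitor of calcineurin that calcineurin activity induces, was higher at both of its probe sets, with a mean of 2114 against 437.7 in control mice (log2 ratio 2.26). Lmcd1, a LIM protein, had 2656 against 1274 (log2 ratio 1.06). The catalytic calcineurin subunit gene Ppp3ca was lower, with log2 ratios from -0.56 to -0.36 at 3 probe sets.
The muscle ankyrin repeat proteins bind titin. Ankrd1 had 308.5 in RXRγ mice and 164.8 in control mice (log2 ratio 0.90), near the low end of the measured range. Its probe sets passed the filter of 250 through the RXRγ array alone, so its direction is not read. Ankrd2 had 462.8 against 1241 (log2 ratio -1.42), and Ankrd23 had 3376 against 5968 (log2 ratio -0.82). Of the 3 genes listed for MuRF ubiquitin ligases, which bind titin and mark sarcomere proteins for breakdown, 2 were lower, Trim63 at 1070 against 2636 (log2 ratio -1.30) and Trim54 at 1138 against 2497 (log2 ratio -1.13), and Trim55 had no probe set of its own. Synpo2, which encodes the actin-binding protein myopodin, had 1339 against 2511 (log2 ratio -0.96), while its relative Synpo2l had 1142 against 752.5 over 3 probe sets (log2 ratio 0.63). The other higher gene was Flnc, filamin C (log2 ratio 0.42), with 0.57 and 0.27 at its 2 probe sets. The intermediate filaments that tie neighbouring Z-discs to each other went apart: desmin (Des) had a log2 ratio of 0.38, which loess centring moved to 0.46 and past the threshold, and synemin (Synm) had -0.71. Csrp3, the muscle LIM protein, which binds the titin cap, had 924.0 against 1325 (log2 ratio -0.52). Neb, nebulin, had 7150 against 6932 (log2 ratio 0.04).
Among the neighbours described, Ankrd1, Ankrd23, Synpo2l, Flnc, Des, Synm, Csrp3, Ppp3ca, Neb, Ttn, Palld, Myoz1, Myoz2, Trim55, Myom2 and the dim α-actinin and PDZ-LIM genes were chosen after their values were seen.

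Slow fibre genes were lower on the same array, and their part in the Z-disc values was not tested. Beside the counts that follow, 16.8% of all genes were higher and 20.1% were lower. Of 9 slow fibre genes, 8 were lower in RXRγ mice and none was higher (median log2 ratio -1.57), with Myh7, the slow myosin heavy chain, at 303.2 against 1754 (log2 ratio -2.53), and the ninth was Myoz2. The slow myosin light chain genes were Myl2, at 893.0 against 2910 (log2 ratio -1.70), and Myl3, at 23.2 against 1747, where the RXRγ signal is too low for a fold. The slow troponin genes Tnnt1, Tnni1 and Tnnc1 had log2 ratios of -2.02, -1.57 and -1.55. Tnnt1 (767.6 in control and 188.9 in RXRγ mice), Tnni1 (486.2 and 163.6) and Myl3 passed the signal filter through the control array alone. For such genes the filter itself favours lower values, which enter both the count of 8 and the median. The median of -1.57 is the value of Tnni1. Of 11 fast fibre genes, none was higher and 2 were lower, Myh2 (log2 ratio -0.81) and Myh4 (-0.42), with a median log2 ratio of -0.21. With loess centring only 1 was lower, since Myh4 moved to -0.33. The log2 ratio of Actn3 (-0.21) lay at that median, and those of the 11 fast fibre genes ran from -0.81 to 0.02. Of 9 thin filament genes, 1 was higher and 3 were lower (median -0.13): the cardiac actin gene Actc1 had 8640 against 5982 (log2 ratio 0.53), Acta1, the skeletal actin that α-actinin cross-links, had 10440 against 10999 (log2 ratio -0.08), and the capping protein gene Tmod4 had 2063 against 4668 (log2 ratio -1.18). The other lower genes were the tropomyosin genes Tpm2, at 3970 against 6978 (log2 ratio -0.88), and Tpm3, whose 3 probe sets ran from -1.14 to 0.06 around a mean of -0.70. Of 7 genes listed for the M-band, 4 were measured, none was higher and 3 were lower. Of these 3, only Myom1 (log2 ratio -0.45) is in no other list. Myh4, also listed as a fast fibre gene, and Ckm, also a skeletal muscle marker, had probe sets that differed widely. Myom2 had 0.39, within the threshold, from probe sets that ran from 0.08 to 0.65. With loess centring, 1 of the 4 was higher, Myom2 (0.48), and 1 was lower, Ckm (-0.68). Myom1 (-0.38) and Myh4 (-0.33) moved within the threshold. Some genes are in more than 1 list.

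**Figure D3:**
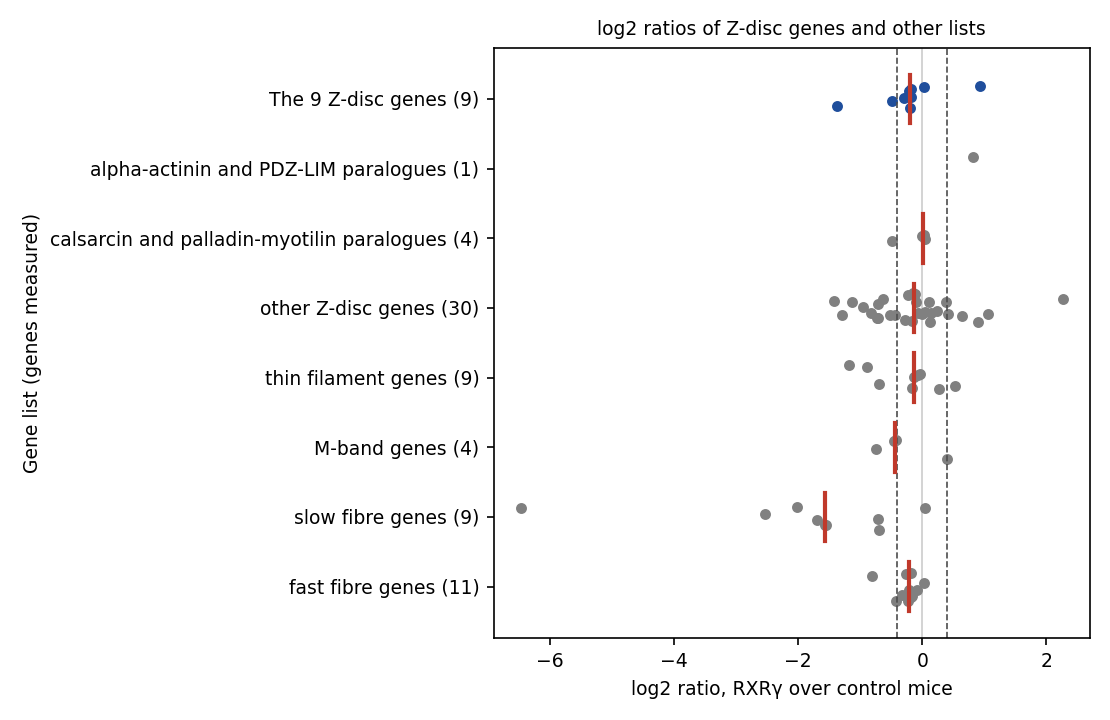
Each point is the log2 ratio (RXRγ over control mice) of a measured gene in 1 of 8 groups, shifted up or down within its row so that points do not hide each other, with red bars at the medians of groups of more than 1 gene and dashed lines at 0.4 in either direction. The 9 Z-disc genes (blue) lie around a median of -0.20 with Actn2 and Myoz3 at the ends, and the slow fibre genes lie around -1.57; the point furthest to the left is Myl3, whose signal of 23.2 in RXRγ mice is too low for a fold.

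The calls on Actn2, Pdlim3 and Myoz3 were compared across ways of processing the same signals. The log2 ratio of Actn2 ran from 0.93 to 1.01 and that of Pdlim3 from -0.49 to -0.42 over 11 alternatives, and both stayed beyond 0.4. Each of these genes has 1 probe set, bright on both arrays. The floor, the other signal filters and the choice of probe sets therefore could not move these values. Only median scaling, quantile normalization, loess centring and the pseudocount could. At a threshold of 1 in place of 0.4, no Z-disc gene was higher and Myoz3 alone was lower. Myoz3 was no longer measured when both arrays had to exceed 250, which left Pdlim3 as the only lower gene, and its log2 ratio was -0.62 without a signal filter, where the dim probe set enters the mean.

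**Figure D4:**
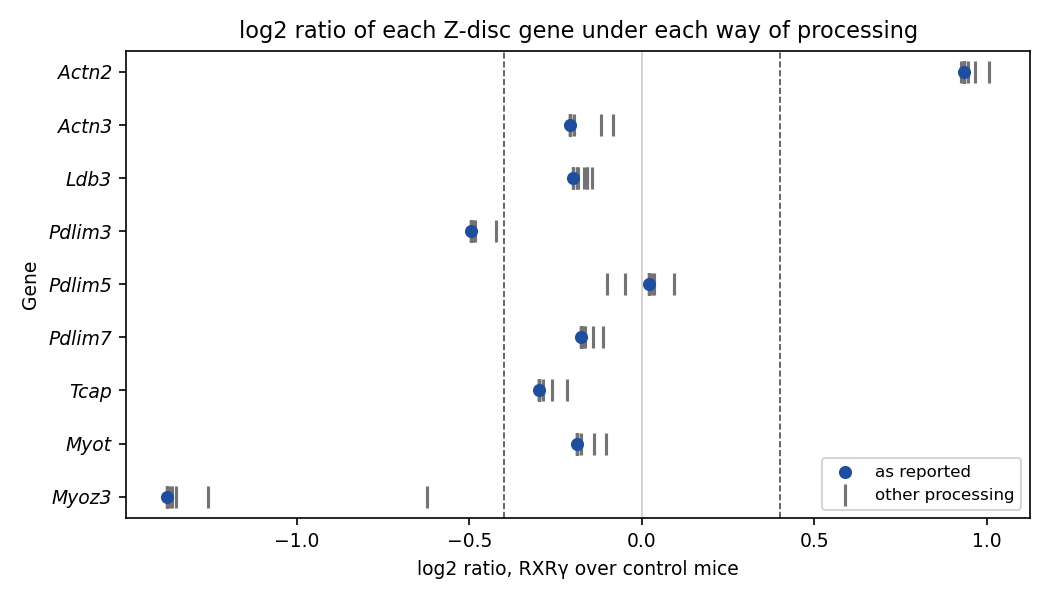
log2 ratio of each Z-disc gene (rows) as reported (blue points) and under the other ways of processing (grey ticks), with dashed lines at 0.4 in either direction. Ticks of Actn2 stay between 0.93 and 1.01, those of Pdlim3 lie closest to a dashed line (-0.42 at the nearest), and Myoz3 has a tick at -0.62.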

How the data were processed

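Skeletal muscle RNA pooled within each genotype was measured on 1 Affymetrix MG430 array per genotype. The authors made the deposited intensity values (probe set signals, linear) with the Affymetrix Gene Chip software from matched and mismatched oligonucleotides, scaled to a trimmed mean of 100.0 on both arrays (without 2% at each end). The sources used here do not give the scaling algorithm, and detection calls were not analysed here. Of 45101 probe sets, 34958 name 1 gene in the platform annotation and only these were used. For each, the log2 ratio of RXRγ over control was computed without a pseudocount. Probe sets with a signal over 250 on at least 1 array were averaged for each gene, and a call of higher or lower was made at 0.4. A gene whose probe sets passed 0.4 in both directions was called neither higher nor lower and was counted with the genes called neither. No p-values were computed, and the number of arrays limits precision. All 9 genes, Rxrg and cell type markers were named, with up to 6 genes per list that had the largest changes beyond 0.4. The members and lists were chosen with earlier results of these data known, and the study's own list of increased genes holds Actn2, Pdlim1 and Ankrd1. The study gives another series number for its arrays, while genotypes, sex, age, tissue and platform match, so list, arrays and mouse line were taken to belong together, and the direction of these genes is not independent evidence. Alternatives were median scaling (over probe sets above 150 on both arrays), quantile normalization, loess centring (span 0.3), a pseudocount of 32, a floor of 150, other signal filters, the brightest probe set, leaving out _x_at and _s_at probe sets and a threshold of 1. The steps were run on known changes put on the control array itself, which checks the code and says nothing of the error between 2 arrays. Promoter windows came from RefSeq (GRCm38.p6). Python 3.11.15, pandas 2.3.3, numpy 2.4.6, scipy 1.17.1, matplotlib 3.10.9, R 4.3.3 and limma 3.58.1 were used.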

Additional observations from a re-analysis of the deposited data

How the results depend on the processing

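Under 12 alternatives, the count of higher Z-disc genes stayed at 1 except at a threshold of 1, where it was 0, since Actn2 lies under 1. The floor, the other signal filters and the choice of probe sets could not move Actn2, Actn3 or Pdlim3, which have 1 bright probe set each. The count of lower genes stayed at 2 except at a threshold of 1 and when both arrays had to exceed 250, where it was 1. The median log2 ratio of the 9 genes ran from -0.20 to -0.12, and that of all genes from -0.06 (above 500 on the brighter array) to 0.05 (no filter), with -0.04 as reported. Myoz3 moved to -0.62 without a filter. The small log2 ratio of Pdlim5 changed sign, from -0.10 to 0.09. The difference between Actn2 and Actn3, added after the values were seen, ran from 1.05 to 1.14. No paired analysis was possible because each genotype has 1 array. One array per genotype gives no replicate spread, and signals under 150 give no reliable fold.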
